A study of Drosophila melanogaster with 37 samples.

Results

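Antimicrobial peptides are short secreted proteins with which insects act on bacteria and fungi, and 10 of their genes in Drosophila melanogaster are described here by the level of their mRNA in flies that no label describes as infected. The genes were chosen by name: the 4 attacins AttA, AttB, AttC and AttD, the diptericin DptB, the cecropin CecA1, the defensin Def, drosomycin (Drs), metchnikowin (Mtk) and andropin (Anp). All 10 were found among the 17559 genes of each table, and 8 of the 10 had a mean TPM of at least 1 over the 12 libraries and were tested; TPM is transcript abundance scaled to gene length and to a sum of 1000000 per library. AttA and AttD, with means of 0.335 and 0.0425 TPM, were not. Of the 8, CecA1 passed only through the male body and the testis: over the other 8 libraries its mean was 0.766 TPM, so for it a difference between those groups and the rest was built into the filter. Its p-values below come from a fit of all 16916 genes with a TPM above 0 in any library, which has no such filter.

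In the fat body, the insect counterpart of the liver, infection turns on most of these genes through 2 pathways of innate immunity. The Toll pathway acts through the NF-κB factors Dorsal and Dif and is known above all for Drs, and the Imd pathway acts through Relish and is known for the attacins, diptericins and cecropins. Epithelia, among them the gut and the reproductive tract, also express such peptides locally. Anp is the exception in its known biology, a peptide of the male reproductive tract whose gene lies in the cecropin cluster and that infection does not induce.

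The libraries came from wild-type flies of an isogenic Canton-S strain, dissected about a day after eclosion. There were 6 groups of 2 libraries each, all of mRNA selected by its poly(A) tail: ovary, testis, female body, male body, female head and male head. What is called testis is the whole inner male tract, with the seminal vesicle, accessory gland and ejaculatory duct, so that a level in it cannot be given to 1 organ. No source states that the gonads were taken out of the bodies, and markers of both gonads were high there: 10 testis genes summed to 3342 and 4095 TPM in male bodies, and 10 ovary genes to 19491 and 60842 TPM in female bodies. The other 25 samples of the series were not analysed here. The mitochondrial gene mt:ATPase8 took up 15.7 to 57.6% of the TPM of 8 libraries and was listed at 0 in the other 4, replicate 2 of both bodies and both gonads. Coverage per base was 2.94 to 6.67 at 1 TPM. Replicates are separate libraries of a group, and as no source says that they came from separate cultures, the p-values measure the spread between these libraries only.

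To show what stands in front of the genes with the clearest patterns, the 250 bases before the annotated start of Anp, CecA1, CecA2 and Drs were read from Release 6 of the genome (the dm6 sequence) on the strand of the gene, 5′ to 3′. Anp, CecA1 and CecA2 are neighbours on chromosome arm 3R and Drs lies on 3L, all on the plus strand. Capitals mark matches, on either strand, to the insect κB consensus, the element that NF-κB factors bind. The CecA1 window is chr3R:30210624-30210873 and holds 1 match, 86 bases before the start. CecA2, at chr3R:30211906-30212155, holds 4. Anp, at chr3R:30209698-30209947, and Drs, at chr3L:3369306-3369555, hold none, which says only that these letters are not in these windows.
Anp: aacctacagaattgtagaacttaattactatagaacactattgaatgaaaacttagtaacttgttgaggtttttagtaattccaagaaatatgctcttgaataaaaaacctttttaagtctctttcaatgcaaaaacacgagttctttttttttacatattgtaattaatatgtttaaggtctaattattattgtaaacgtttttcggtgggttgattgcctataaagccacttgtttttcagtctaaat
CecA1: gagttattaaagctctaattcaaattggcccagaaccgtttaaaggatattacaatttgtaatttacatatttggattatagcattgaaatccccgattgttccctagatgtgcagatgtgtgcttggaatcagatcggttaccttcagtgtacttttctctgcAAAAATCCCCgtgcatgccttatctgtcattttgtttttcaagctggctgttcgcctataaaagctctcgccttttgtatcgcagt
CecA2: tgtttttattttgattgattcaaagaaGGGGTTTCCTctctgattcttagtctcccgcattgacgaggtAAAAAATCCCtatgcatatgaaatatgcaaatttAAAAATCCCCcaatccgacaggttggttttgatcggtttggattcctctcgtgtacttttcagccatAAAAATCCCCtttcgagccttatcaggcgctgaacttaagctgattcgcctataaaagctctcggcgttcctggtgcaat
Drs: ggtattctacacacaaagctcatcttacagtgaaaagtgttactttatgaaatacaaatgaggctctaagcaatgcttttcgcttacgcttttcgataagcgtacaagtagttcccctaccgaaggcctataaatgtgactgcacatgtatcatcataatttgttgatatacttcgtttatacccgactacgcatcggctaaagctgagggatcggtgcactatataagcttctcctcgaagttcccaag

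Among the 250-base windows of 13654 protein-coding genes, 5.56% held a κB match and 50.2% held GATAA on either strand, the core bound by GATA factors such as Serpent of the fat body. Of the windows of the 10 genes, 5 held a κB match, those of AttC, CecA1, Def, DptB and Mtk, and 8 held GATAA, all except AttD and Anp. No κB match overlapped a GATAA. A match is a description of the letters and not a binding site.

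Anp had the highest TPM of the 10 genes wherever the male tract was present, and also, at a far lower level, in both ovary libraries. Its level was 20.8 and 10.8 TPM in ovary and 1777 and 3556 TPM in testis. It was 7.63 and 2.33 TPM in female body and 456 and 1239 TPM in male body, and 3.10 and 2.30 TPM in female head and 2.85 and 1.78 TPM in male head. All 4 libraries of testis and male body lay far above the other 8. The gene (FBgn0000094) lies on 3R from 30209948 to 30210382 and has 2 exons. In order of its mean the groups ran testis, male body, ovary, female body, female head and male head, and the libraries of the last 3 overlapped.

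**Figure D1:**
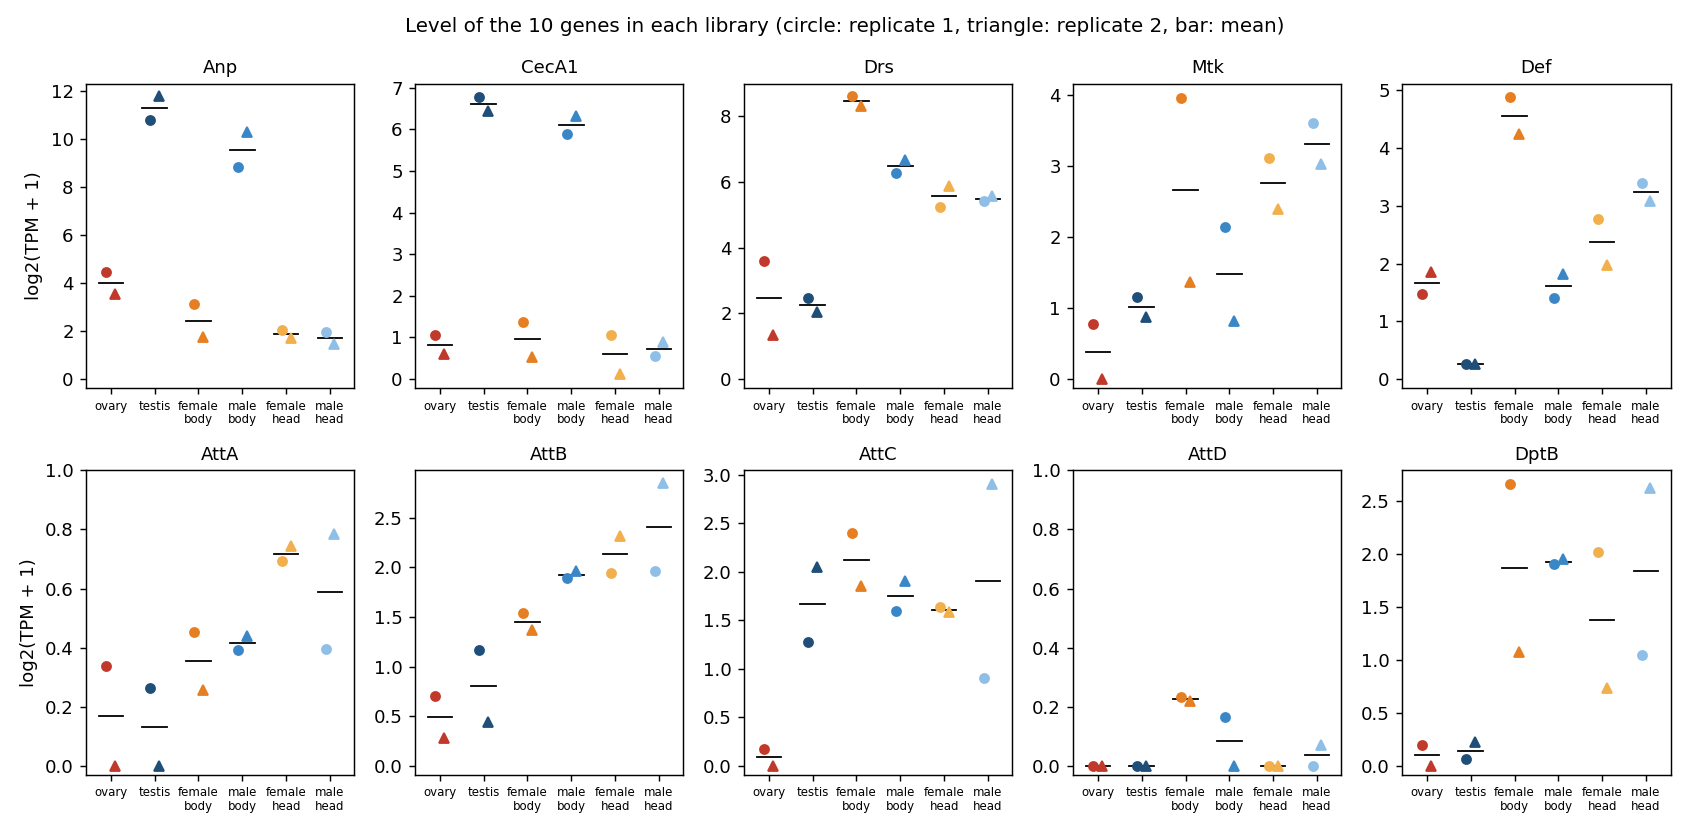
Each panel plots log2(TPM + 1) of 1 gene in the 12 libraries, with a circle for replicate 1, a triangle for replicate 2 and a bar for the mean; the vertical scale differs between panels. Anp and CecA1 stood high in testis and male body only, at 456 to 3556 TPM and 58.0 to 108 TPM, whereas Drs and Def were highest in female body.

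Between female and male bodies the log2 difference of Anp was -7.13 (standard error 0.65, 95% interval -8.59 to -5.68, adjusted p = 7.36e-06), and between ovary and testis it was -7.29 (standard error 0.65, adjusted p = 4.43e-06). Every difference given here is one of log2(TPM + 1), a scale that makes changes of low genes look smaller. Between female and male heads it was 0.17 (interval -1.28 to 1.62, adjusted p = 1), and the difference between body and head in the sex difference was itself called (-7.30, interval -9.36 to -5.25, adjusted p = 0.000124). In males, Anp was higher in body than in head by 7.84 (adjusted p = 3.19e-06). These 4 calls held under every alternative run, between -8.66 and -6.41 for the sex differences. Testis and male body did not overlap, but their difference of 1.74 (interval 0.29 to 3.19) had an adjusted p of 0.0615. With the replicate number as a block it was 0.0323, and without replicate 2 of the male body 0.0313.

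The low values of Anp in female libraries and in heads were set beside genes known from the male tract. Each library was divided by the testis library that carried its number. In ovary Anp was at 1.17 and 0.304% of testis, and the medians of 14 accessory gland genes were 1.04 and 0.223%. In female body Anp was at 0.429 and 0.0654% and the accessory gland genes at 0.473 and 0.0491%, and in male body Anp was at 25.6 and 34.8% and the accessory gland genes at 33.5 and 38.3%. In all 10 libraries compared Anp lay within the range of these 14 genes, and likewise within that of 10 genes of spermatogenesis. The latter range was wide in ovary and female body through aly, at 7.58 and 10.3% in ovary and 4.17 and 3.23% in female body. The medians of the 10 genes were 1.08 and 0.212% in ovary and 0.451 and 0.0396% in female body. The share of Anp was higher in replicate 1 than in replicate 2 of ovary, female body and both heads. In libraries without the male tract Anp thus stood at the level that seminal fluid and sperm genes had there, and where these reads came from was not tested. Another 6 listed genes were those of the ejaculatory duct, the textbook site of Anp, and of its bulb. In male body they ran from 23.5 to 180% of testis in replicate 1 and from 33.9 to 341% in replicate 2. Their medians were 73.1 and 97.8%. Anp lay within their range in all 10 libraries, and in male body near its lower end. The lowest of the 6 there was Dup99B, at 23.5 and 33.9%. The highest, PebIII, was also at 338 and 546% of testis in female head.

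**Figure D2:**
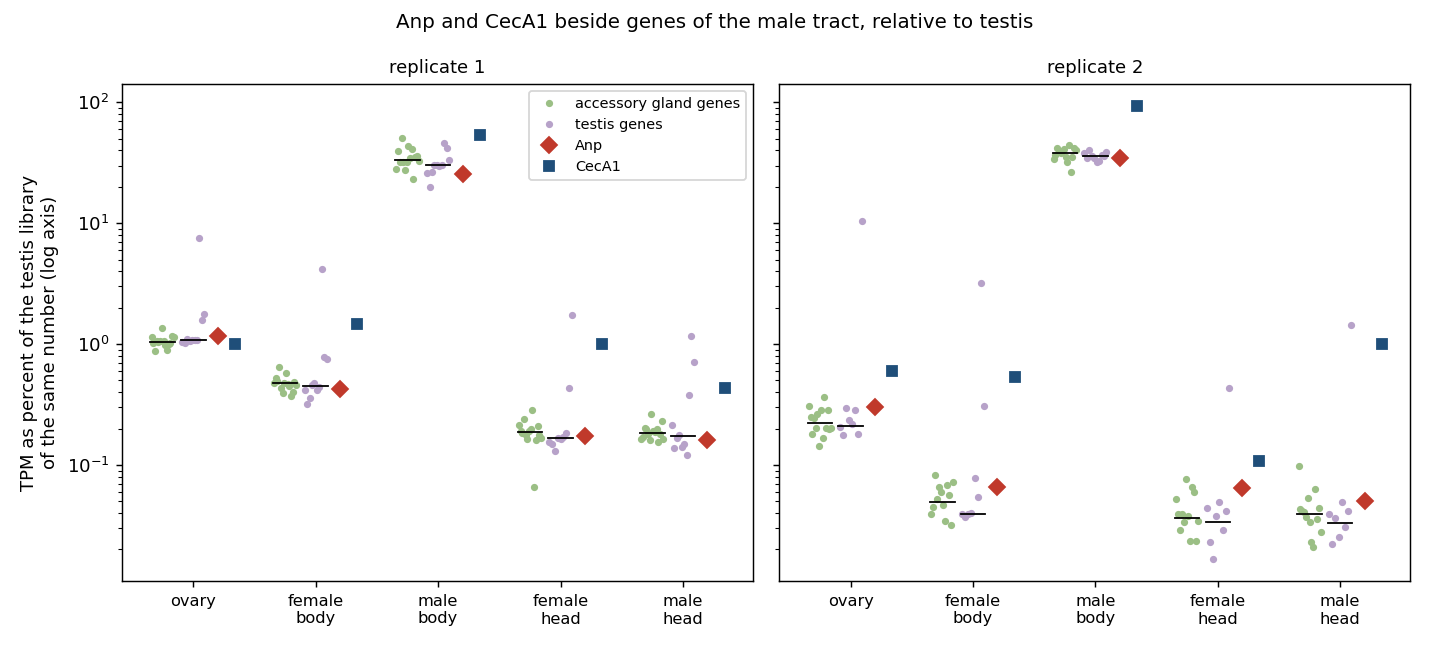
The vertical log axis gives TPM as percent of the testis library with the same number, for 14 accessory gland genes, 10 testis genes (black bars: medians; values of 0 are not drawn), Anp and CecA1. Anp lay within the range of the accessory gland genes in 10 of 10 libraries, and CecA1 in 1 of 10; CecA1 lay within the range of the testis genes in 7 of 10.

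CecA1, an α-helical peptide known for action on Gram-negative bacteria, was likewise highest in testis and male body, at a lower level. It was at 1.09 and 0.505 TPM in ovary and 108 and 85.2 TPM in testis. Female body had 1.58 and 0.455 TPM and male body 58.0 and 79.0 TPM, and female head had 1.08 and 0.0925 TPM and male head 0.470 and 0.854 TPM. The 4 libraries with the male tract stood apart, and the other 8 overlapped with each other. Without a filter on low values, the log2 difference was -5.15 between female and male bodies (adjusted p = 1.82e-05), -5.77 between ovary and testis (adjusted p = 5.42e-06) and 5.38 between male body and male head (adjusted p = 1.16e-05), and the sex difference of the body differed from that of the head by -5.02 (adjusted p = 0.000291). Testis and male body differed by 0.49 (adjusted p = 0.453), with an interval of -0.47 to 1.46 in the fit of 12882 genes. CecA1 in male body was at 53.8 and 92.8% of testis, above all 14 accessory gland genes in both replicates. It lay within the range of the 6 genes of the ejaculatory duct and bulb. That range was wide, at 23.5 to 180% and 33.9 to 341%, so lying within it says little.

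CecA1 (FBgn0000276, 3R from 30210874 to 30211273, 2 exons) starts 491 bases after the end of Anp on the same strand, and the other cecropins follow it. None of them shared its level. CecA2, the next functional cecropin, had at most 0.376 TPM in any library, CecB at most 0.970 TPM and CecC at most 1.72 TPM, and the pseudogene Cec-Psi1 between CecA1 and CecA2 was listed at 0 throughout. The ribosomal protein gene RpS7, which lies 927 bases from Anp on the other side and on the minus strand, was at 3048 and 3906 TPM in ovary and at 255 and 565 TPM in testis. The spliced CecA1 and CecA2 sequences were 82.0% identical, and 9.0% of the 50-base windows of CecA1 were found in CecA2, so some reads could be assigned to either gene. CecA1 and Anp shared 51.3% of aligned bases and no 50-base window.

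**Figure D3:**
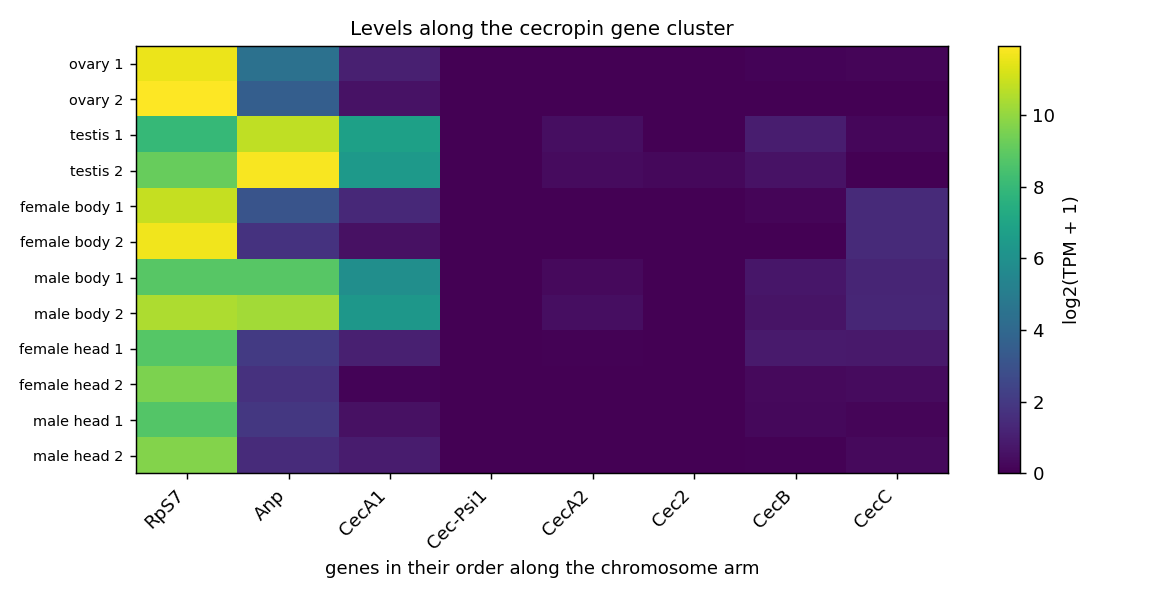
Colour gives log2(TPM + 1) of the genes of the cecropin cluster, in their order along the chromosome arm, in the 12 libraries. Anp and CecA1 are at 58.0 TPM or more in testis and male body, the other cecropins stay at or below 1.72 TPM, and RpS7 is expressed in all libraries.

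Drs, an antifungal peptide and the classical readout of Toll signalling, had the highest TPM of the 10 genes in female body and in both heads. Ovary had 11.2 and 1.54 TPM and testis 4.56 and 3.13 TPM. It was at 394 and 319 TPM in female body and 76.7 and 100.4 TPM in male body, and at 37.0 and 57.3 TPM in female head and 41.9 and 46.1 TPM in male head. The groups ran female body, male body, female head, male head, ovary and testis, and of the neighbours in this order only the heads overlapped with each other and the gonads with each other. Drs alone made up 85.9 and 92.0% of the summed TPM of the 10 genes in female body.

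Drs was higher in female than in male body by 2.0 (standard error 0.64, interval 0.56 to 3.44, adjusted p = 0.0299), a call that did not last: leaving out any of the 4 body libraries gave adjusted p-values of 0.0595 to 0.119, FPKM 0.0532, and scaling by the median of ratios a difference of 1.05 (adjusted p = 0.265). With the replicate block it was 0.0123. Female body exceeded female head by 2.92 (adjusted p = 0.0057), with 0.0507 without replicate 1 of the female head and 0.0758 with the median of ratios. In males the body exceeded the head by 0.98 (interval -0.46 to 2.42, adjusted p = 0.275). The sex difference of the body was not shown to differ from that of the head (1.94, interval -0.10 to 3.97, adjusted p = 0.143). Ovary and testis differed by 0.21 (adjusted p = 0.806), or by 1.35 without replicate 2 of the ovary (adjusted p = 0.0472). The low level in gonads held under every alternative run: -6.0 for ovary against female body (adjusted p = 0.000214) and -4.21 for testis against male body (adjusted p = 0.00104). Drs (FBgn0010381) is a single exon on 3L from 3369556 to 3369942 with no overlapping gene.

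Def, a defensin known for action on Gram-positive bacteria, had opposite body-to-head differences in the sexes. Ovary had 1.77 and 2.6 TPM and testis 0.200 and 0.202 TPM. It was at 28.6 and 17.9 TPM in female body and 1.65 and 2.54 TPM in male body, and at 5.86 and 2.94 TPM in female head and 9.47 and 7.45 TPM in male head. Female body stood above every other library, and male body below every head. The log2 difference between female and male body was 2.95 (standard error 0.37, interval 2.11 to 3.78, adjusted p = 8.63e-05), between female and male head -0.85 (adjusted p = 1, unadjusted p = 0.0454), and the difference of the body minus that of the head was 3.80 (standard error 0.52, adjusted p = 0.000237). Def was higher in female body than female head by 2.18 (adjusted p = 0.00126; 0.0806 with the median of ratios) and lower in male body than male head (-1.62, adjusted p = 0.0047). The call between bodies and the difference of the sex differences held under every alternative run.

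Def (FBgn0010385) is a single exon on 2R from 10054178 to 10054576, on the minus strand inside the plus-strand gene magu. The sources used here do not state strand-specific PolyA libraries, so reads of both strands may be counted together; the exons of Def and magu share no base in the RefSeq annotation. magu was at 16.9 and 45.9 TPM in ovary and 2.41 and 5.45 TPM in testis, and at 15.9 and 37.1 TPM in female body and 7.15 and 19.2 TPM in male body. Its libraries of ovary and female body overlapped, whereas Def was lower in ovary than in female body (-2.90, adjusted p = 0.000601; 0.0603 with only these libraries in the model).

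Mtk, a proline-rich peptide induced by both pathways, differed widely between replicates. It was at 0.707 and 0 TPM in ovary and 1.22 and 0.841 TPM in testis. Female body had 14.6 and 1.57 TPM and male body 3.42 and 0.757 TPM, and female head had 7.68 and 4.26 TPM and male head 11.1 and 7.14 TPM. No difference of Mtk passed the test. Since libraries of the same number moved together, the block mattered here: male body minus male head was -1.84 (adjusted p = 0.0831, and 0.00821 with the block), and ovary minus female body -2.28 (0.107, and 0.00815 with the block). Replicate 2 of the female body decided several values. Without it, the adjusted p was 0.0106 for female against male body, 0.00672 for ovary against female body and 0.0166 for the difference of the sex differences. Mtk (FBgn0014865, 2R from 15408846 to 15409113) is a single exon within CG43729 on the same strand, and the exons of the 2 genes share no base.

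The attacins and DptB, glycine-rich peptides and readouts of Imd signalling, were low in all tissues. AttB ranged from 0.215 to 1.24 TPM in gonads, from 1.58 to 2.90 TPM in bodies and from 2.85 to 6.20 TPM in heads. AttC ranged from 2.03 to 4.27 TPM in bodies and from 0.873 to 6.46 TPM in heads, both extremes in male head. DptB had at most 0.165 TPM in either gonad, 5.30 and 1.11 TPM in female body and 2.73 and 2.87 TPM in male body. DptB shares 48 of its 449 exonic bases (10.7%) with CG43109 on the other strand, which was at most 0.620 TPM in any library. No sex difference of AttB, AttC or DptB in body or head passed the test. AttA, next to AttB, stayed at or below 0.722 TPM in every library. AttD, an attacin encoded away from the others on 3R, was listed at 0 in 8 libraries and reached 0.174 TPM in female body. The coverage of AttD was at most 1.88 per base, and its differences between tissues were not tested. AttA and AttB are 87.4% identical in spliced sequence and share 8.9% of the 50-base windows of AttA, so reads may be split between them. AttA (2R from 14747362 to 14748215), AttB (14749223 to 14750165), AttC (13393705 to 13394667), DptB (18867391 to 18867895) and AttD (3R from 17625268 to 17626086) have 2 exons each.

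AttC was lower in ovary than in testis. It was at 0.129 and 0 TPM in ovary and at 1.42 and 3.15 TPM in testis, a difference of -1.58 (adjusted p = 0.031). Without replicate 1 or 2 of the ovary the adjusted p was 0.0713 or 0.123, without replicate 2 of the testis 0.160, and with FPKM 0.0524. AttC shares 53 of its 900 exonic bases (5.89%) with CG4744 on the other strand, and CG4744 was at 30.7 and 79.4 TPM in testis, 13 and 27.7 TPM in male body and at most 0.320 TPM elsewhere. The part of these reads in the AttC value of male libraries was not tested. AttC in ovary was also below female body (-2.04, adjusted p = 0.0395), a call lost without any 1 of these 4 libraries (0.0934 to 0.185). Without replicate 1 of the male head, AttC was lower in male body than male head (-1.15, adjusted p = 0.0497) and its sex difference differed between body and head (1.66, adjusted p = 0.0393); with all libraries neither was called (0.871 and 0.575).

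In counts, 0 of the 8 tested genes differed between the sexes in heads by limma, where 0.0932% of all 12882 genes tested were called (the unadjusted p was under 0.05 for 1 of the 8, Def, and for 157 of all genes). In bodies 2 were higher in females, Def and Drs, and 2 lower, Anp and CecA1, with 42.5% of all genes called. In this and every other contrast of male body or testis with the remaining groups, a call of CecA1 was favoured by the filter and is read as no result of the count. Scaling by the median of ratios, under which the median difference of all genes was -0.74 in place of -0.01, left 1 higher and 2 lower. Between ovary and testis 1 was higher (Def, 1.39, adjusted p = 0.00883) and 3 lower, with 60.1% called; with the median of ratios (median of all genes -0.67 in place of 0.07) Def was no longer called (0.260), nor without replicate 2 of the ovary (0.0578) or replicate 1 of the testis (0.0533). In the difference of the sex differences between body and head 1 was higher and 2 lower, with 32.5% called. With CecA1 counted, the 8 genes were thus called about as often as genes in general in these contrasts. With the replicate block their counts stayed at 2 higher and 2 lower in bodies, where 66% of all genes were called. They stayed at 1 higher and 3 lower between ovary and testis, where 75.6% were called, so these shares were below those of all genes.

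**Figure D4:**
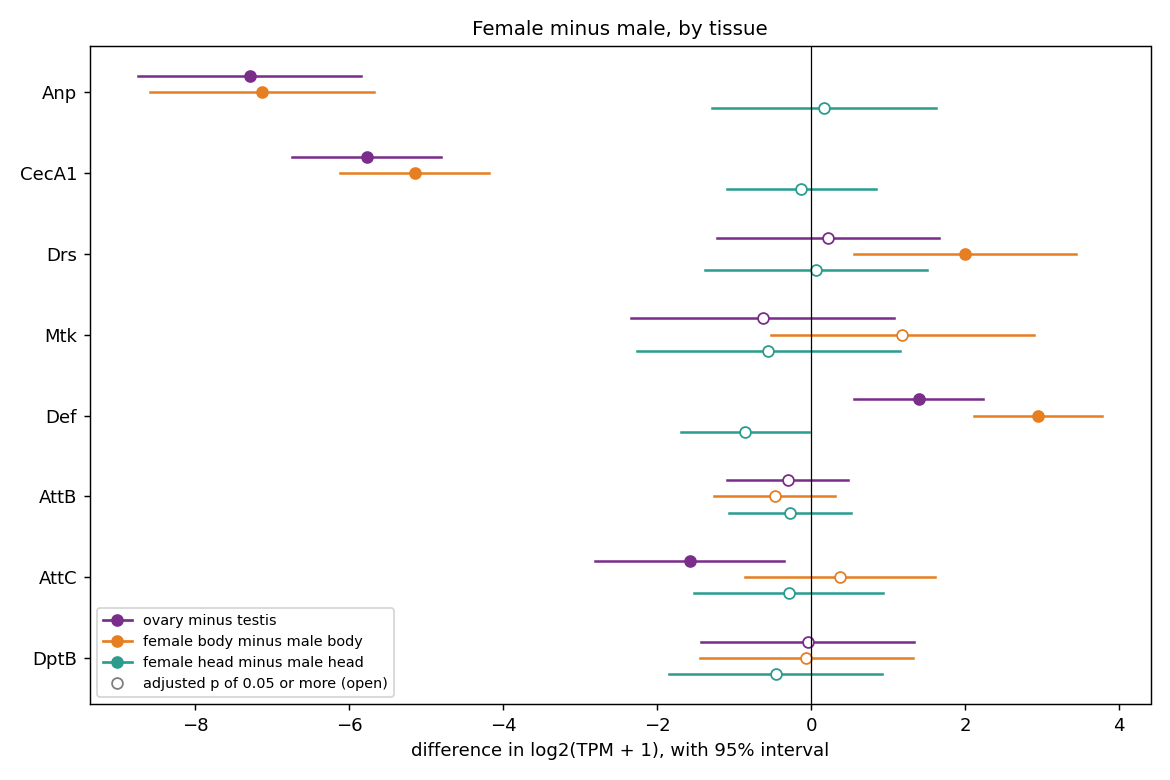
Differences between female and male in log2(TPM + 1) with 95% intervals for the 8 genes tested, in gonads, bodies and heads; filled points have an adjusted p under 0.05. Anp and CecA1 lie far to the left in gonads and bodies, at -7.29 to -5.15, Def and Drs to the right in bodies, and all 8 intervals but that of Def include 0 in heads.

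Between tissues, 2 of the 8 genes were higher in female body than female head, Def and Drs, and 0 lower (35.2% of all genes called), and 2 were higher in male body than male head, Anp and CecA1, with Def lower (42.6% called). Under the median of ratios the female contrast had 1 call, AttB lower (-1.33, adjusted p = 0.0401). On TPM without mitochondrial genes AttB was likewise lower (-1.27, adjusted p = 0.0288), and Def and Drs remained higher. Ovary had 3 genes below female body (AttC, Def and Drs) and 0 above, where 11.6% of all genes were called, so that a larger share of the 8 than of all genes was called. Without replicate 2 of the female body, DptB was also below it (-2.56, adjusted p = 0.0457; 0.127 with all libraries). Testis had 4 below male body and 0 above, where 36.5% were called: Drs, AttB (-1.13, adjusted p = 0.0309), Def (-1.35, 0.0182) and DptB (-1.78, 0.0467). The calls of AttB, Def and DptB were weak. AttB was lost without replicate 1 or 2 of the male body (0.0800 and 0.108) or replicate 2 of the testis (0.218), Def without replicate 2 of the male body (0.103) or either testis library (0.0893 and 0.0926), and DptB without any of the 4 (0.122 to 0.153). The median difference of the 8 genes was -1.90 for ovary and -0.79 for testis, against 0.25 and 0.11 for all genes.

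**Figure D5:**
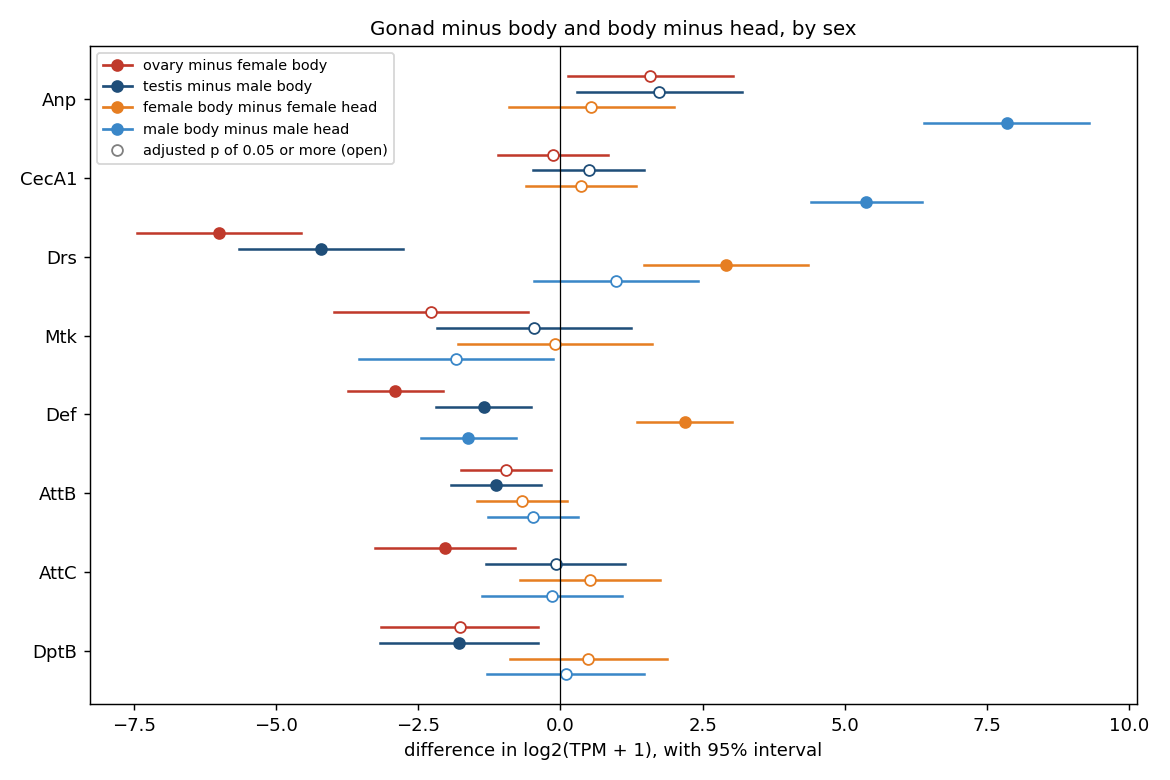
Differences between gonad and body and between body and head of the same sex in log2(TPM + 1) with 95% intervals; filled points have an adjusted p under 0.05. Drs is lowest in gonads relative to bodies (-6.0 and -4.21), the body minus head difference of Def lies on opposite sides of 0 in females (2.18) and males (-1.62), and Anp and CecA1 stand out in male body over male head.

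Markers of other cell types moved with these levels. The 8 fat body genes found of 11 summed to 49.6 and 120 TPM in ovary and 20.3 to 37.1 TPM in testis, against 659 to 903 TPM in female body and 591 to 1150 TPM in male body, and the 9 hemocyte genes to 1.85 to 7.37 TPM in gonads against 22.8 to 73.7 TPM in bodies. In ovary 6 of 8 fat body genes were below female body, where 11.6% of all genes were called, and in testis 7 of 8 were below male body, where 36.5% were called. Their part in the lower peptide levels of gonads was not tested, and in such bulk samples fewer cells of a type and less RNA per cell cannot be told apart. Between female and male body 1 of 8 fat body genes was higher and 0 lower, or 2 lower with the block, and 0 of 7 tested hemocyte genes were called. Of all genes, 42.5% were called between the bodies, and 66% with the block.

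Without Anp and CecA1, the summed TPM of the other 8 genes was 14.8 and 4.35 in ovary, 8.88 and 7.85 in testis, 449 and 344 in female body, 89.7 and 113 in male body, 59.1 and 71.8 in female head and 67.6 and 79.3 in male head. The sum was highest in female body, where Drs alone was at 394 and 319 TPM, and lowest in both gonads. By group mean AttD, Def, DptB and Drs were highest in female body, and AttA, AttB, AttC and Mtk in a head. With Anp included the sum was highest in testis, where Anp alone held 93.8 and 97.5% of the sum of the 10 genes.

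The genes most like each member in pattern were found by Pearson's correlation of log2(TPM + 1) over the 12 libraries, a description in which all points share their libraries. For Anp they were Cdlc2 (0.999), CG30430, CG17097, CG9975 and the accessory gland gene Acp76A (0.998). For CecA1 they were CG15543 (0.994), CG42463 and CG31952, and Anp and CecA1 correlated at 0.974 with each other. For AttB the second was PGRP-SB1 (0.948), a peptidoglycan recognition protein of the Imd-induced set, after CG33307 (0.950) and before CG11841 (0.943). For AttC they were CG43085 (0.894), PGRP-LF (0.851) and Dpt (0.849). For DptB they were GNBP-like3, IM2 and IM1 (0.839 each), and for Mtk IM1 (0.877), CG42307 and CR44298, IM1 and IM2 being peptides secreted after infection. For Def they were CG14285 (0.837), CR44892 (0.826) and CR45938 (0.818), and for Drs CG12998 (0.958), the cuticle gene Cpr47Ea (0.953) and CG15515 (0.943).

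Of 22 other antimicrobial and immune-induced peptide genes found, 14 were tested. None differed between the heads (unadjusted p under 0.05 for 2). Lower in female than in male body were 2, IM18 (-2.35) and Drsl4 (-1.13), at adjusted p = 0.0322 and 0.0116, where 42.5% of all genes were called. In both sexes Listericin, an antibacterial peptide, and Drsl5, a drosomycin relative, were lower in body than in head, with differences for Listericin of -3.65 in females and -3.09 in males, and Drsl2 was higher. Between body and head 35.2% of all genes were called in females and 42.6% in males. In ovary 11 of 14 were below female body, where 11.6% of all genes were called, led by IM3 (-5.58) and IM4 (-4.82). In testis 5 were below male body and Drsl2 above it, and 7 were lower in ovary than in testis, where 36.5 and 60.1% of all genes were called. The levels in testis were unequal. IM3 was at 12.6 and 31.6 TPM in testis against 600 and 1717 TPM in male body, a difference of -5.59 (adjusted p = 0.000745), and IM4 was at 272 and 182 TPM against 213 and 215 TPM, a difference of 0.06 (adjusted p = 0.963).

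Of 19 Toll pathway genes, 0 differed between heads, where 0 had an unadjusted p under 0.05, and 2 were higher in female than male body, spz (2.01), which encodes the Toll ligand, and Pli (1.54), with PGRP-SD lower (-1.38), against 42.5% of all genes called. The block gave 8 higher and 2 lower, and called 66% of all genes. In ovary 9 were above testis and 2 below, a share near the 60.1% called of all genes, and 12 and 4 with the block, which called 75.6%. These were led by the receptor gene Tl (4.08), spz (3.20), cact (3.14), the inhibitor, and dl (2.80), which encodes Dorsal. Tl, spz, cact and dl are also known for patterning of the embryo from maternal mRNA. In ovary 7 were lower than in female body and 0 higher (11.6% of all genes called), or 8 lower with the block (17.2% called), led by the protease genes SPE (-3.75) and grass (-2.55) and the serpin gene nec (-3.18), and in testis 9 were lower than in male body and 0 higher (36.5% called), led by the recognition gene GNBP3 (-4.12) and SPE (-3.63), or 16 with the block (59.3% called).

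Of 14 Imd pathway genes, 0 differed between heads (0 also by unadjusted p) and 1 was higher in female than male body, akirin (1.81, adjusted p = 0.00283), a nuclear cofactor of Relish, or 9 with the block, both at or below the shares of all genes called (42.5 and 66%). In female body 3 were above female head (akirin, the sensor PGRP-LE and eff), or 7 with the block and 1 below, where 35.2% of all genes and, with the block, 55.8% were called. The receptor gene PGRP-LC was the only call in each gonad against its body (-2.0 in ovary and -1.78 in testis), below the shares of all genes called (11.6 and 36.5%). The block gave 3 higher and 5 lower in testis, a share near the 59.3% it called of all genes. Of 13 negative regulators, 4 were higher in female body than head and 5 in male body than head, shares near those of all genes called (35.2 and 42.6%), among them the amidase genes PGRP-SC1a (6.66 and 5.78) and PGRP-SC2 (6.11 and 6.26), which degrade peptidoglycan in the gut, and cad (6.41 and 4.35), known as a repressor of peptide genes in the gut. The transcript of cad was also high in gonads, at 85 and 394 TPM in ovary and 21.3 and 61.1 TPM in testis, against 58.4 and 238 TPM in female body and 21.7 and 55.1 TPM in male body. With the block 8 were higher and 2 lower in females. All 9 midgut digestive genes listed as markers were likewise higher in body than in head in both sexes.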

How the data were processed

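Tables of 12 PolyA libraries were used. By the study's methods, the authors aligned PolyA reads to dm6 with STAR version 2.6.1a and Ensembl genes. The submitters' processing notes also name cutadapt (versions 1.15 and 1.18), UMI-tools, Cufflinks and StringTie version 2.0; which of these wrote the gene tables is not given in the sources used here. The authors deposited TPM, FPKM and coverage per gene, without read counts. TPM was analysed, FPKM was an alternative, and the deposited coverage signal only described depth. Columns of other samples numbered 0.

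Differences in log2(TPM + 1) of the 12882 genes whose mean TPM reached 1 were tested with limma (version 3.58.1; R version 4.3.3): a single model with a mean for each of the 6 groups, eBayes with trend, two-sided, Benjamini-Hochberg adjustment over all genes of a contrast, threshold 0.05. The steps were tested on simulated data. Python 3.11.15, numpy 2.4.6, pandas 2.3.3, Biopython 1.88 and matplotlib 3.10.9 served the other steps. Members, lists, tests and alternatives were chosen with earlier results of these data known. All 10 members are named, at most 4 called genes per list and contrast by size of difference, and of similar patterns 5 genes for Anp and 3 for each other tested member. The cecropin neighbours, overlapping genes and a few single peptide genes were named after their values were seen.

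Replicate numbers come from the labels. Deviations from group means of same-numbered libraries correlated at 0.345 to 0.769 (median 0.473) in 15 of 15 pairs of groups. Libraries of the same number thus shared a shift, and what it came from was not tested. The main model does not include this shift, and the replicate block does. Alternatives were the replicate block, a pseudocount of 0.1, no filter, a mean TPM of 5 or more, FPKM, the median of ratios over 6381 genes, TPM without 37 mitochondrial genes, eBayes without trend, only the libraries compared, and each library left out. Sequences and exons came from RefSeq on Release 6, where 16683 of 16830 matched genes, all 10 members included, had the coordinates of the tables.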

Additional observations from a re-analysis of the deposited data

Results flagged for a closer look

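The difference between female and male was not the same in body and head for 3 of the 8 genes, by a test of that difference itself (limma, Benjamini-Hochberg adjustment over 12882 genes). Of all genes tested, 32.5% were called in this contrast, a share near that of the 8. Anp differed by -7.13 in body and 0.17 in head, and the difference between these was -7.30 (adjusted p = 0.000124). For CecA1 the values were -5.15 in body and -0.13 in head, a difference of -5.02; as CecA1 passed the filter on low values only through male body and testis, its adjusted p of 0.000291 is from the fit of 16916 genes without that filter. For Def they were 2.95 and -0.85, a difference of 3.80 (adjusted p = 0.000237), with both female bodies above both male bodies and both female heads below both male heads.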

How the results depend on the processing

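Over the log2 differences of the 8 genes in 8 contrasts, 725 values under alternatives kept direction and side of the threshold, 43 that were not called in either setting changed sign, 46 fell short of the threshold, 18 passed it anew, and none that was called changed sign. The sex differences of Anp and CecA1 in body and gonads, their excess in male body over male head, Def between bodies and between male body and head, and Drs of gonads against bodies held throughout. For CecA1 this says little, as the filter on low values favoured these calls in every setting but the one without a filter. They were also called in that setting. Counts of calls moved by over 1.5 times in these cases: between ovary and testis 2 with FPKM, against 4; between female body and head 1 with the median of ratios and 1 without female head replicate 1, against 2; between ovary and female body 5 with a pseudocount of 0.1, against 3; and between testis and male body 2 with a mean TPM of at least 5, 2 with FPKM and 1 to 2 when a library was left out, against 4. With the replicate number as a block, 3 calls were gained (Mtk in 2 contrasts, Anp in 1) and no other call of these genes changed. With 2 libraries a group, a stronger filter removes genes and leaving out a library leaves 1 in its group, which is assumed to vary like the others; other causes were not tested. TPM keeps no read counts, so counting error could not be given for values below about 1 TPM.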

Other observations

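The Turandot genes, which encode humoral stress peptides induced through JAK/STAT signalling, were low in both gonads. TotA averaged 4.87 TPM in ovary and 5.57 TPM in testis, against 266 TPM in female body and 381 TPM in male body, with differences of -5.95 and -5.87 (adjusted p = 0.000226 and 0.000242, limma). For TotC the differences from the body were -5.25 in ovary and -5.72 in testis. Of the 10 genes of this list that were tested, 4 were lower in ovary and 5 in testis than in the body of the same sex, where 11.6 and 36.5% of all genes were called, or 6 and 7 with the replicate block, which called 17.2 and 59.3%. TotX was lower in female than in male body (-1.55, adjusted p = 0.00267) and, in both sexes, lower in body than in head (-1.19 and -1.37).

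Drosocin (Dro), an Imd-induced peptide gene chosen here after its values were seen, passed the filter with a mean of 1.12 TPM through 1 library, and no difference of it passed the test. It was at 13.2 TPM in replicate 1 of the female head, listed at 0 in 10 libraries and at 0.215 TPM in replicate 2 of the testis. Its neighbour AttA was at 0.617 and 0.674 TPM in the 2 female heads. In replicate 2 of the male head AttB, AttC and DptB were at 6.20, 6.46 and 5.16 TPM, against 2.90, 0.873 and 1.07 TPM in replicate 1.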
